A study of Mus musculus with 38 samples.

Results

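The 7 genes described here were App with its paralogs Aplp1 and Aplp2, and the prion protein gene Prnp with its relatives Prnd and Sprn and the neighboring pseudogene Lamr1-ps1. They were chosen by family and position, with earlier results of these data known, out of 48709 genes counted. Mouse symbols were matched by Ensembl identifier. Messenger RNA of the whole hippocampus was sequenced in 38 mice on a C57BL/6 background, 18 wild-type (WT) littermates and 20 APPPS1ΔE9 mice, named APPdelta9 in the genotype labels. The APPPS1ΔE9 line is a model of Alzheimer's disease that carries a transgene for a mutant amyloid precursor protein, and the line is known for driving its transgenes from a mouse prion protein promoter. Anle138b, an oligomer modulator of the diphenyl-pyrazole class, or placebo was given in the chow, and mice were analyzed at 6 months of age (pre-plaque group) or at 10 months (post-plaque group). The pre-plaque group held 4 mice per genotype and chow. The post-plaque group held 5 WT mice on placebo, 5 WT mice on anle138b, 5 APPPS1ΔE9 mice on placebo and 7 on anle138b. The question asked of these genes is which of them carry more reads in the transgenic mice, and whether the chow or the age moved them.

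App encodes the amyloid precursor protein, a membrane protein of neurons that secretases cut to release amyloid-β. Aplp1 and Aplp2 encode relatives that share its overall build but lack the amyloid-β stretch. Prnp encodes the cellular prion protein, a glycolipid-anchored protein of the neuronal surface that is needed for prion disease and can bind amyloid-β oligomers. Sprn encodes Shadoo, a small brain protein of the same family, and Prnd encodes Doppel, which is made mainly in testis and hardly at all in adult brain. Lamr1-ps1 is a processed pseudogene, a copy of the mRNA of the laminin receptor and ribosomal protein gene Rpsa that has no known protein product.

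In the GENCODE M21 annotation of GRCm38, App (ENSMUSG00000022892) lies at chr16:84949685-85173766 on the minus strand, Aplp1 (ENSMUSG00000006651) at chr7:30434982-30445535 on the minus strand and Aplp2 (ENSMUSG00000031996) at chr9:31149557-31211815 on the minus strand. Prnp (ENSMUSG00000079037) lies at chr2:131909928-131938429 on the plus strand, with Lamr1-ps1 (ENSMUSG00000081229, chr2:131904086-131904959, plus strand) ending 4968 bases before it and Prnd (ENSMUSG00000027338, chr2:131950861-131956130, plus strand) starting 12431 bases beyond it. Sprn (ENSMUSG00000045733) lies at chr7:140150628-140154877 on the minus strand. The paralogs can serve as controls for reads on App only as far as their sequences differ. The longest coding sequences of App and Aplp1 were identical in 51.1% of aligned columns, those of App and Aplp2 in 61.6% and those of Aplp1 and Aplp2 in 52.4%. The longest run of bases that App shared exactly with any transcript of Aplp1 was 14 bases, and with any transcript of Aplp2 it was 24 bases. The stretch of the coding end in which the 3 genes were most alike is shown as an example. It does not bound how far a read could fit several of these genes, since the run of 24 bases lies outside it. Capitals mark the 36 of 60 positions identical in all 3 genes (GENCODE M21 coding sequences). The stretch starts at coding base 2188 in App, 1843 in Aplp1 and 2131 in Aplp2:
App: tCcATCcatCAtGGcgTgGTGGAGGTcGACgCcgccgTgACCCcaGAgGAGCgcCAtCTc
Aplp1: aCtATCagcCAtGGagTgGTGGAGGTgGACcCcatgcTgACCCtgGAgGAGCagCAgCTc
Aplp2: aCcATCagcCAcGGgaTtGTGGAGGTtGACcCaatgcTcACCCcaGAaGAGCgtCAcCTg

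Lamr1-ps1 had diverged from its source gene throughout. Its 874 bases aligned to Rpsa in 900 columns, of which 645 (71.7%) were identical, 202 were mismatched and 53 were gaps, and the longest exact run was 25 bases. The 60-base stretch with the most mismatches, 21 of them in capitals, is shown because it marks where reads of the pseudogene and of Rpsa differ most (GENCODE M21 transcripts, Lamr1-ps1 at chr2:131904132-131904191, plus strand):
Lamr1-ps1: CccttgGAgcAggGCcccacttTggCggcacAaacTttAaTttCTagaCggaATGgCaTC
Rpsa: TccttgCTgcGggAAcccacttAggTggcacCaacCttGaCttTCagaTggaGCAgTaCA

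Of the 825 windows of 50 bases in the Lamr1-ps1 transcript, 0 occurred in a transcript of any other gene on either strand. The same count was 0 of 3046 for Aplp1, 0 of 5913 for Aplp2, 97 of 13177 (0.736%) for App and 162 of 2294 (7.06%) for Prnp. Sprn shared 110 of 3373 windows (3.26%). Prnd was the exception, with 3120 of 3254 windows (95.9%) found in Prn, an overlapping annotation that joins exons of Prnp and Prnd. Only 89 of the 3211 exon bases of Prnd belonged to Prnd alone, so its count covers little of the gene and is uncertain.

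The promoter windows of App and Prnp (RefSeq, GRCm38.p6; 250 bases before to 50 after the start) are shown because these were the protein-coding members with more reads in the transgenic mice. Capitals mark the letters GGGCGG (GC box), CCAAT and TATAAA on either strand, which did not overlap each other. App is shown from chr16:85173658-85173957 on the minus strand and Prnp from chr2:131909678-131909977 on the plus strand:
App: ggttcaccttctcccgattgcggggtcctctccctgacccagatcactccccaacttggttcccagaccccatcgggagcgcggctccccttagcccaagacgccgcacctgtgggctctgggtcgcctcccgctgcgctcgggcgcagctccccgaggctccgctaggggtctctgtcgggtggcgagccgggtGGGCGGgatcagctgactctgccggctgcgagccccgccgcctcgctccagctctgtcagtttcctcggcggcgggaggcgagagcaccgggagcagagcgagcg
Prnp: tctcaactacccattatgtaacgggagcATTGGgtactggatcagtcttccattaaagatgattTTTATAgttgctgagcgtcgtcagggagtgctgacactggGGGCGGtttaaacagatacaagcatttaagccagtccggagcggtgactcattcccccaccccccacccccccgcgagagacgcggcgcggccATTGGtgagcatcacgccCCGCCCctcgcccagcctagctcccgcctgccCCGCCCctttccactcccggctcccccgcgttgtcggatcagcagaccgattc

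The App window held 1 GC box and 0 matches to the other motifs, and 71% of its bases were G or C. The Prnp window held 3 GC boxes, 2 CCAAT boxes and 1 TATAAA, with 60% G or C. Of all 32851 promoter windows of this length, 35.7% held a GC box, 37.4% a CCAAT box and 13.6% TATAAA. These matches describe letters and were not tested as sites, and which stretch of the Prnp locus the transgenes carry is not given in the sources used here.

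Each library held between 15847985 and 31895808 reads assigned to genes (median 24530658). Values below are counts per 1e6 reads (CPM) of that total unless a fit is named. The neuronal marker Snap25 ranged from 2224 to 2906 CPM and the hippocampal marker Prox1 from 47.3 to 204 CPM over the 38 mice. The summed microglia markers (Cx3cr1, P2ry12, Csf1r and Tmem119, all detected) had group medians of 225 to 232 CPM in WT mice and 236 to 300 CPM in APPPS1ΔE9 mice, and the choroid plexus markers ranged from 31.6 to 7780 CPM; their part in the results was not tested. Although the mice are described as male, Xist was above 100 CPM in 12 of 38 mice, 11 of them WT, so the genotype comparisons are given with and without these mice. The 4 pre-plaque WT mice on placebo are WT by title but APPdelta9 by genotype entry. They were used as WT, as titled. Their App levels, 1623 to 1799 CPM, lay among those of WT mice and below the lowest APPPS1ΔE9 mouse, at 3274 CPM. This check used App itself, so the App difference in that comparison is not independent of it. In whole tissue, fewer cells of a type and less RNA per cell cannot be told apart.

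App was higher in APPPS1ΔE9 than in WT mice in each chow and at each age, without overlap between the genotypes. In the pre-plaque group, WT mice on placebo had 1799, 1623, 1678 and 1706 CPM and APPPS1ΔE9 mice on placebo had 3866, 4238, 3835 and 4286 CPM. On anle138b, WT mice of this age had 1708, 1629, 1712 and 1719 CPM and APPPS1ΔE9 mice had 4011, 3757, 3276 and 3860 CPM. The lowest transgenic mouse on anle138b, at 3276 CPM, was still far above the highest WT mouse. In the post-plaque group, WT mice on placebo had 1656, 1624, 1624, 1766 and 1580 CPM and APPPS1ΔE9 mice on placebo had 3731, 3475, 3634, 3274 and 3596 CPM. On anle138b, WT mice had 1730, 1783, 1522, 1604 and 1555 CPM, and the 7 APPPS1ΔE9 mice ranged from 3531 to 4153 CPM with a median of 3863 CPM. Over all mice, App was at 1668 ± 78.5 CPM in WT (SD, n = 18) and at 3786 ± 281 CPM in APPPS1ΔE9 (SD, n = 20), and ranked 29th and 9th by mean CPM among all genes.

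The quasi-likelihood test of edgeR gave App a log2 fold change of 1.26 ± 0.075 (SE, Benjamini-Hochberg adjusted p = 1.59e-06) in pre-plaque mice on placebo and 1.14 ± 0.068 (adjusted p = 2.26e-05) in those on anle138b. In the post-plaque group, edgeR gave 1.11 ± 0.064 (adjusted p = 1.16e-05) on placebo and 1.23 ± 0.063 (adjusted p = 4.97e-07) on anle138b. The files give counts per mouse gene, so reads of endogenous App and reads of the transgene that align to it cannot be told apart.

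**Figure D1:**
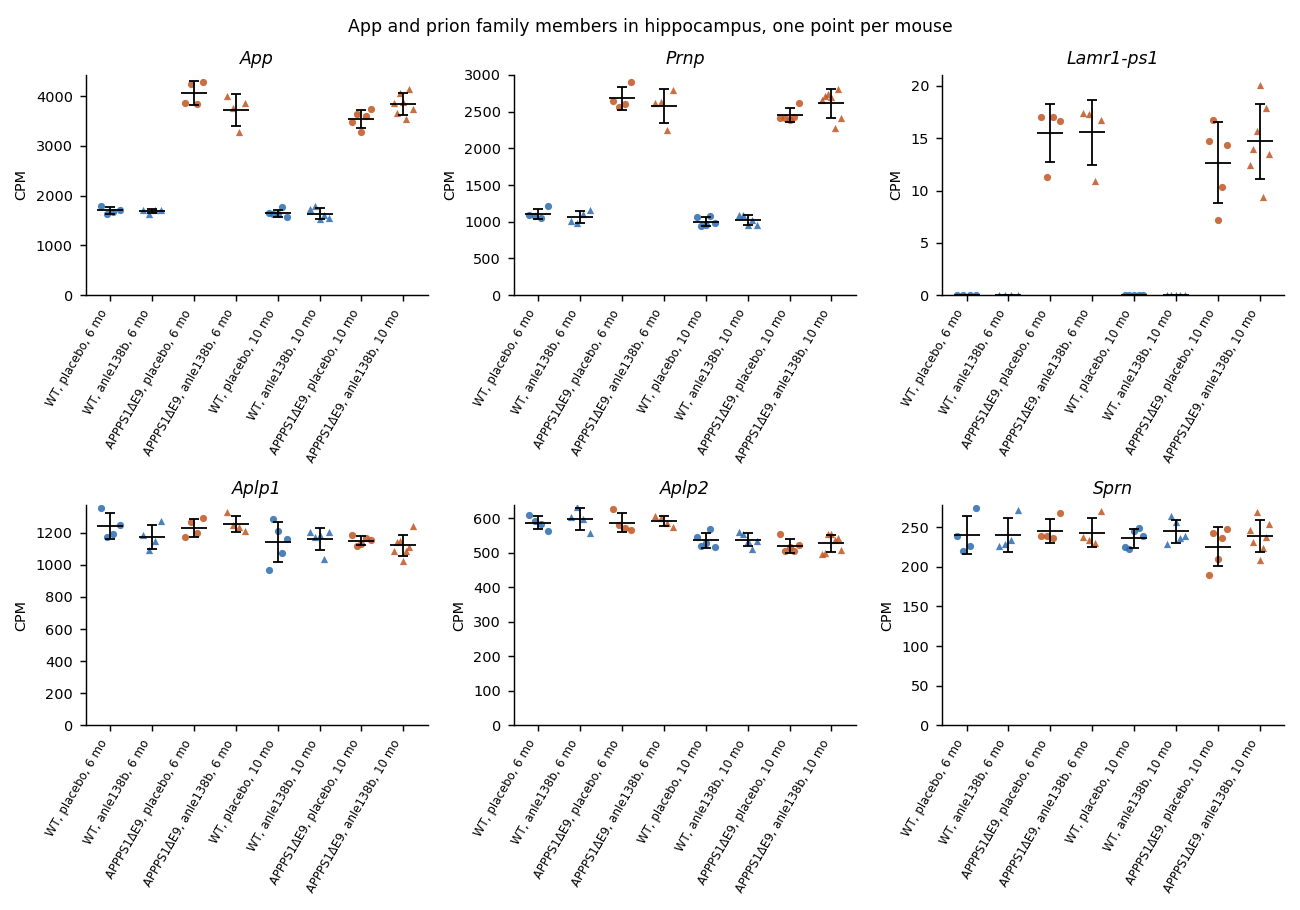
CPM in every mouse, by group, for the members other than Prnd, with 1 point per mouse and a line with bars for the group mean ± SD. App, Prnp and Lamr1-ps1 separate the genotypes in each chow and at each age, while Aplp1, Aplp2 and Sprn overlap.

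Aplp1 and Aplp2 did not follow App. Aplp1 was at 1175 ± 91.7 CPM in WT (SD, n = 18) and 1176 ± 76.1 CPM in APPPS1ΔE9 mice (SD, n = 20), with group means between 1120 and 1254 CPM. Aplp2 was at 562 ± 35.3 CPM in WT and 551 ± 39 CPM in APPPS1ΔE9 mice. The genotypes overlapped for both genes in all 4 comparisons. In edgeR, the log2 fold changes of Aplp1 were -0.0012 and 0.094 in the pre-plaque group on placebo and anle138b, and 0.016 and -0.043 in the post-plaque group. Those of Aplp2 were 0.0082, -0.014, -0.037 and -0.023 in the same order. The 95% intervals of these 8 values ran from -0.18 to 0.22, a range that leaves out the changes of App. By age, Aplp2 had group means of 587 to 598 CPM at 6 months and 521 to 538 CPM at 10 months in both genotypes, and age and cohort cannot be told apart here.

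Prnp was higher in the transgenic mice as well. In the pre-plaque group on placebo, WT mice had 1092, 1085, 1051 and 1210 CPM and APPPS1ΔE9 mice had 2651, 2562, 2607 and 2907 CPM. On anle138b, WT mice had 1014, 982, 1101 and 1166 CPM and APPPS1ΔE9 mice had 2620.2, 2636, 2244 and 2789 CPM. The mouse with the lowest Prnp among the pre-plaque transgenic mice was also the one with the lowest App. In the post-plaque group on placebo, WT mice had 1062, 935, 954, 1079.8 and 985 CPM and APPPS1ΔE9 mice had 2612, 2415, 2419.9, 2381 and 2425 CPM. On anle138b, WT mice had 1087, 1098, 957, 1021 and 951 CPM, and the 7 APPPS1ΔE9 mice ranged from 2272 to 2807 CPM with a median of 2698 CPM. The genotypes did not overlap in any of these 4 comparisons. Prnp was at 1046 ± 77.1 CPM in WT (SD, n = 18) and at 2578 ± 182 CPM in APPPS1ΔE9 mice (SD, n = 20).

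By edgeR, the log2 fold changes of Prnp were 1.28 ± 0.077 (SE, adjusted p = 1.59e-06) on placebo and 1.27 ± 0.080 (adjusted p = 2.69e-05) on anle138b in the pre-plaque group. They were 1.29 ± 0.063 (adjusted p = 5.85e-06) and 1.36 ± 0.068 (adjusted p = 4.97e-07) in the post-plaque group. The difference between the changes of App and Prnp was not tested. As for App, reads of endogenous Prnp and any transgene reads that align to it cannot be told apart.

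Lamr1-ps1 was nearly silent in WT mice and detected in each transgenic mouse. The 18 WT mice together held 1 read among 429706903, in a pre-plaque mouse on anle138b, and the 20 APPPS1ΔE9 mice held 7257 reads among 498050255, with 156 to 551 reads per mouse. In the pre-plaque group, APPPS1ΔE9 mice had 17, 11.3, 17.1 and 16.7 CPM on placebo and 17.4, 17.3, 10.9 and 16.7 CPM on anle138b. In the post-plaque group they had 14.3, 14.7, 16.8, 7.22 and 10.3 CPM on placebo, and on anle138b they ranged from 9.35 to 20.1 CPM with a median of 14 CPM. The level in a transgenic mouse thus varied more, relative to its mean, than that of App or Prnp (14.5 ± 3.35 CPM, SD, n = 20). Against a floor of 3 reads over the WT group, Lamr1-ps1 was at least 507-fold higher on placebo at 6 months, at least 495-fold higher on placebo at 10 months and at least 617-fold higher on anle138b at 10 months. On anle138b at 6 months, where the 1 WT read fell, the ratio was 1389, with an exact 95% binomial interval from 249 to 54888 that covers counting error only. Lamr1-ps1 passed the low-count filter only through the transgenic mice and so had to differ, for which reason its fitted p-values are not given. Reads of the endogenous pseudogene and any transgene reads that align to it cannot be told apart. Rpsa, the source gene, was at 2.10 ± 0.415 CPM in WT (SD, n = 18) and 1.98 ± 0.314 CPM in APPPS1ΔE9 mice (SD, n = 20). Of its 3256 windows of 50 bases, 939 (28.8%) also occurred in transcripts of 30 other genes, Rpsa pseudogenes among them, so this level is a partial count of Rpsa.

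**Figure D2:**
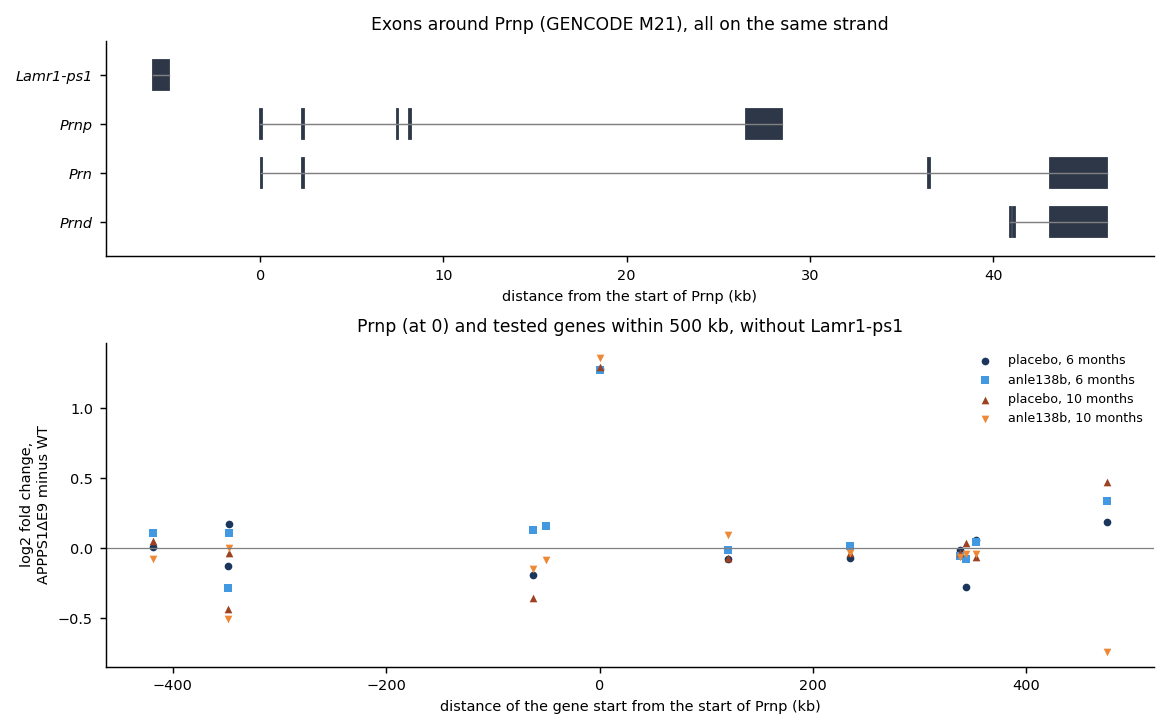
Upper panel, exons (boxes) of Lamr1-ps1, Prnp, Prn and Prnd by distance in kb from the Prnp start; lower panel, log2 fold change of APPPS1ΔE9 against WT for Prnp and the tested genes starting within 500 kb, without Lamr1-ps1, with 1 symbol per chow and age. Lamr1-ps1 ends 4968 bases before Prnp, Prn holds exons of both Prnp and Prnd, and Prnp at 0 kb lies above its plotted neighbors in all 4 comparisons.

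The remaining prion family genes did not pass the test or could not be fitted. Prnd had 2 reads in all, both in 1 pre-plaque WT mouse on anle138b, and 0 of 498050255 reads in APPPS1ΔE9 mice, which allows up to 0.0060 CPM. The overlapping Prn had 10 reads in WT and 2 in APPPS1ΔE9 mice. Both are at the limit of detection. The low-count filter removed Prnd from each fit. Sprn was at 240 ± 16.6 CPM in WT (SD, n = 18) and 238 ± 20.1 CPM in APPPS1ΔE9 mice (SD, n = 20), with overlap in each of the 4 comparisons. Its log2 fold changes were 0.043, 0.017, -0.061 and -0.028 for placebo and anle138b at 6 and then 10 months, with 95% intervals from -0.25 to 0.21.

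Of the 7 members, 6 passed the low-count filter in each genotype comparison. App and Prnp were called at an adjusted p below 0.1, both as higher, in each of the 4 comparisons, and so was Lamr1-ps1, whose call the filter fixed. Over all genes, edgeR called 0.0715% on placebo and 0.047% on anle138b at 6 months, and 0.324% and 0.723% at 10 months. The same 3 members were those whose groups did not overlap, which held for 6.38%, 3.22%, 1.33% and 0.857% of tested genes in the same order. For Lamr1-ps1, the filter fixed this separation as it fixed the call. These calls were also made without the mice with high Xist, a choice made after seeing the data. Without them, which left 1 WT mouse on placebo at 6 months that was assumed to vary like the other mice of its fit, App had log2 fold changes of 1.29, 1.15, 1.15 and 1.11 and Prnp of 1.37, 1.30, 1.36 and 1.24, and the highest edgeR adjusted p of both genes was 0.0164. In WT mice, App was at 1662 ± 86.1 CPM in those with high Xist (SD, n = 11) and 1677 ± 70.4 CPM in the others (SD, n = 7).

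**Figure D3:**
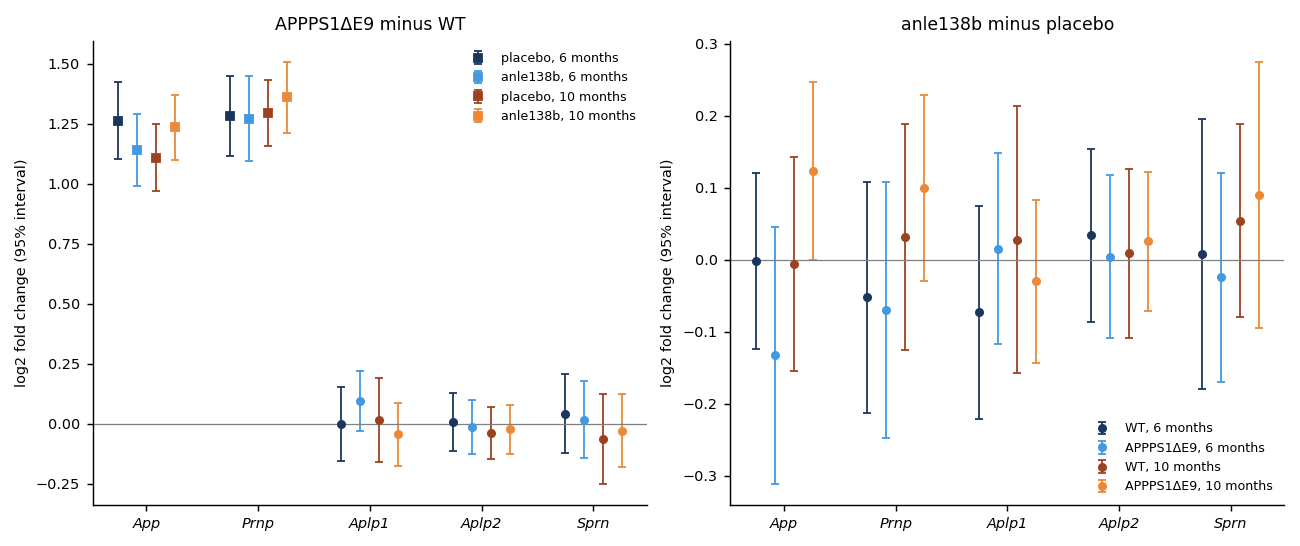
Fitted log2 fold changes with 95% intervals of the members tested in all comparisons, for APPPS1ΔE9 against WT (left) and anle138b against placebo (right, on a finer scale), with squares for values called at an adjusted p below 0.1. App and Prnp lie well above 0 in the 4 genotype comparisons, Aplp1, Aplp2 and Sprn lie near 0, and the intervals of the chow comparisons include 0.

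Counts per gene grow with length, so levels were compared between genes as CPM per kb of exon that no other gene shares. In WT mice, Prnp stood highest at 476 ± 35.1 CPM per kb, followed by Aplp1 at 390 ± 30.4, App at 129 ± 6.10, Aplp2 at 95.6 ± 6.02 and Sprn at 74.7 ± 5.17 (SD, n = 18). Over the longest transcript instead, Prnp (479 ± 35.3 CPM per kb) and Aplp1 (475 ± 37.1) did not differ beyond their spread. The gap between Prnp and Aplp1 thus depends on the length used, while the order of their means stayed the same. Over that length, App was at 204 ± 9.62 CPM per kb, Aplp2 at 155 ± 9.73 and Sprn at 71.2 ± 4.93. The distance of App and Aplp2 from the others thus depends on the length as well. In APPPS1ΔE9 mice, Prnp was at 1173 ± 82.8, App at 294 ± 21.8 and Lamr1-ps1 at 16.6 ± 3.84 CPM per kb of own exon (SD, n = 20).

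To set App against genes of its own family within each library, the log2 ratio of App to the geometric mean of Aplp1 and Aplp2 was computed. WT group means of this ratio were 0.996 to 1.08 and APPPS1ΔE9 group means 2.11 to 2.32. The genotypes differed by 1.26 and 1.09 on placebo and anle138b at 6 months, each with p = 0.0286 in a two-sided exact permutation test, and by 1.11 (exact permutation p = 0.00794) and 1.27 (exact permutation p = 0.00126) at 10 months. The log2 ratio of Prnp to Sprn differed by 1.24, 1.25, 1.36 and 1.39 in the same order, with the same p-values. These are the smallest p-values each exact test allows, since no groups overlapped. Over the 16 ratio tests, Benjamini-Hochberg adjustment raised them to 0.0539 at 6 months and to 0.0317 and 0.0101 at 10 months.

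Anle138b left the members of WT mice without a detected change. At 6 months, edgeR log2 fold changes of the 5 tested members ran from -0.073 to 0.034 and at 10 months from -0.0061 to 0.054, with 95% intervals from -0.22 to 0.21. In these comparisons, 0 members and 0% of all genes were called at 6 months (310 genes at an unadjusted p below 0.05, 2 by DESeq2) and 0% at 10 months (212 unadjusted, 0 by DESeq2).

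In APPPS1ΔE9 mice, App was lower on anle138b than on placebo at 6 months and higher at 10 months, and neither difference passed the threshold. The chow groups at 6 months shared no sequencing lane, so lane and chow cannot be told apart there. At 10 months the chow groups shared a lane only in part, so lane limits that comparison as well. At 6 months, mean App was 4056 ± 239 CPM on placebo (SD, n = 4) and 3726 ± 318 CPM on anle138b (SD, n = 4), a log2 fold change of -0.13 with a 95% interval from -0.31 to 0.046 (edgeR adjusted p = 0.491). At 10 months it was 3542 ± 176 CPM (SD, n = 5) and 3840 ± 217 CPM (SD, n = 7), a log2 fold change of 0.12 with an interval from -0.00082 to 0.25 (edgeR adjusted p = 0.999). The groups overlapped at both ages. Prnp differed by -0.069 (interval -0.25 to 0.11) and 0.10 (-0.029 to 0.23), and Lamr1-ps1 by 0.00059 (-0.40 to 0.40) and 0.21 (-0.25 to 0.68). None of the 6 tested members was called, against 0.0529% of all genes at 6 months and 0% at 10 months (254 genes at an unadjusted p below 0.05, 0 by DESeq2).

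Relative to its paralogs, App differed between chows in the transgenic mice by -0.15 on the log2 scale at 6 months (two-sided exact permutation p = 0.0857, adjusted 0.137) and by 0.13 at 10 months (exact permutation p = 0.0303, adjusted 0.0539). The groups overlapped at both ages. The 10-month value rested on the choice of paralog, since with Aplp2 alone it was 0.098 (exact permutation p = 0.0909), and it missed an unadjusted 0.05 without any 1 of 6 mice (0.10 to 0.12 without them). Prnp relative to Sprn differed by -0.046 and 0.0037.

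The genotype effect on App did not pass a test of difference between chows or between ages. The interaction of genotype and chow, from fits that share the groups of the comparisons above, was -0.12 on the log2 scale (95% interval -0.32 to 0.079) at 6 months and 0.13 (-0.042 to 0.30) at 10 months for App. For Prnp it was -0.0069 and 0.068. Among all genes, edgeR called 0% at 6 months (1390 at an unadjusted p below 0.05, 28 by DESeq2) and 0% at 10 months (407 unadjusted, 2 by DESeq2). The genotype effect at 10 minus 6 months was -0.16 (-0.34 to 0.023) on placebo and 0.10 (-0.099 to 0.30) on anle138b for App, and 0.0087 and 0.093 for Prnp. On placebo, 0% of genes were called (1089 at an unadjusted p below 0.05, 16 by DESeq2), and on anle138b 0.028%, with 0 members among them.

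Within the transgenic groups, mice with more App also had more Prnp. Over the 20 APPPS1ΔE9 mice, the deviations of log2 CPM from the group means correlated with Pearson's r = 0.79 (permutation p = 0.00018, adjusted 0.00288 over 16 relations) and Spearman's rho = 0.74 (permutation p = 0.00119, adjusted 0.0190). Without the 2 mice farthest from the median of App, r was 0.72, and it was 0.79 within each age. The 18 WT mice showed the relation too, with r = 0.73 (permutation p = 0.00191, adjusted 0.0153), rho = 0.72 (permutation p = 0.0038, adjusted 0.0304) and r = 0.63 without the 2 farthest mice. Within ages it was 0.45 in the 8 WT mice at 6 months and 0.89 in the 10 WT mice at 10 months. Values of 1 mouse share a library and its scaling, and the difference between the genotypes was not tested. Prnp and Sprn had r = 0.49 and rho = 0.58 in APPPS1ΔE9 mice (adjusted permutation p = 0.0898 and 0.0478). In WT mice they had r = 0.59 and rho = 0.53 (adjusted permutation p = 0.072 and 0.0817). Relations within groups were thus not limited to App and Prnp. Prnp and Lamr1-ps1, which was measured at low counts, had r = 0.63 (permutation p = 0.00304, adjusted 0.0162) and rho = 0.50 (adjusted permutation p = 0.0817) over the APPPS1ΔE9 mice, and r = 0.42 without the 2 farthest mice, so this relation rests in part on those mice. With Aplp1 and Aplp2, App had r = 0.35 and 0.16 in APPPS1ΔE9 mice (adjusted permutation p = 0.197 and 0.558). Spearman's rho there was 0.58 and 0.26 (adjusted permutation p = 0.0808 and 0.38). In WT mice, r was 0.16 and 0.51 (adjusted permutation p = 0.571 and 0.0935) and rho was 0.21 and 0.42 (adjusted permutation p = 0.461 and 0.164).

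**Figure D4:**
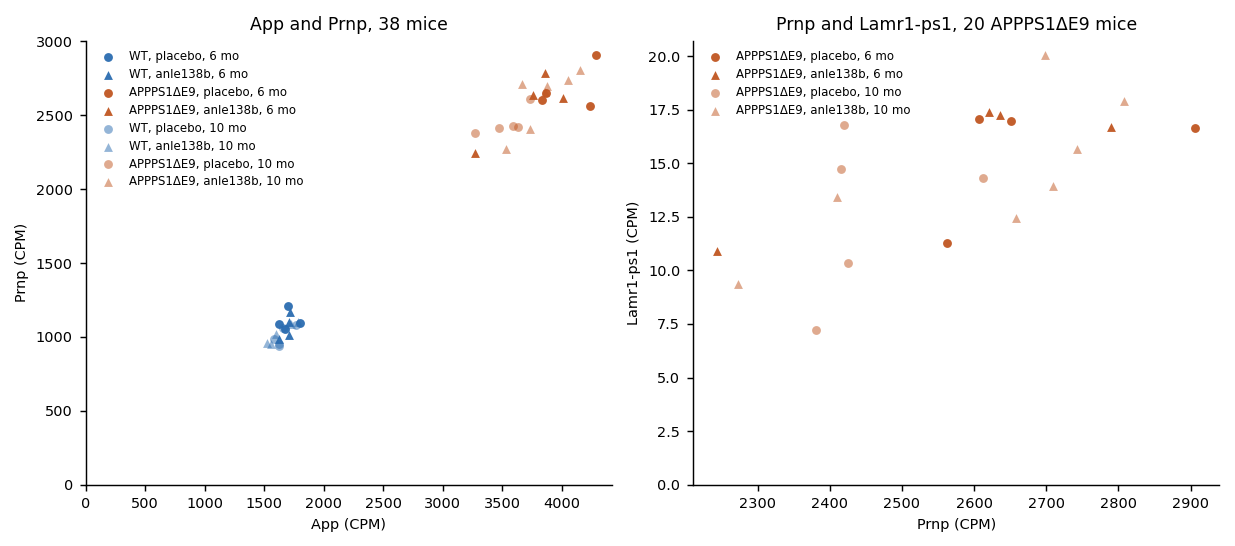
Prnp against App and Lamr1-ps1 against Prnp in CPM, 1 point per mouse, with a Prnp axis that does not start at 0 in the panel of the 20 APPPS1ΔE9 mice. WT mice lie between 1522 and 1799 CPM of App and APPPS1ΔE9 mice between 3274 and 4286 CPM, and within each genotype mice with more App tend to have more Prnp.

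The excess over the WT mean of the same age and chow was 2121 ± 275 CPM for App, 1534 ± 173 CPM for Prnp and 14.5 ± 3.35 CPM for Lamr1-ps1 (SD, n = 20). Per read of App excess, there were 0.727 ± 0.0625 reads of Prnp excess, from 0.573 to 0.848 over the mice. Per read of Prnp excess, there were 0.00942 ± 0.00177 reads of Lamr1-ps1. In fold, App stood at 2.27 ± 0.162 and Prnp at 2.47 ± 0.167 of the matched WT mean, while Aplp1, Aplp2 and Sprn stood at 1.002 ± 0.0572, 0.984 ± 0.0394 and 0.987 ± 0.0820. The ratios of the excess describe reads on gene models of different length and are not molar.

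No gene listed as acting with the members passed the test. Of 17 genes for APP adaptors and sorting factors, all tested, 0 were called in any genotype comparison, and their median log2 fold changes were 0.066, 0.029, 0.035 and -0.015 against medians over all genes between -0.0044 and 0.0023. The 2 most abundant were Itm2c (893 CPM in WT, 886 CPM in APPPS1ΔE9) and Itm2b (779 and 794 CPM), which encode BRI proteins that bind APP. Of 11 genes for prion protein partners and zinc transporter relatives, 10 or 11 were tested and 0 were called. Dpp6, a potassium channel subunit, was at 415 and 423 CPM and Grm5, a glutamate receptor, at 319 and 315 CPM.

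Genes near the members on the chromosome were counted as well. Of 11 annotated genes starting within 500 kb of the App start, 5 were tested and 0 were called in the genotype comparisons, with Atp5j at 117 CPM in WT and 111 CPM in APPPS1ΔE9 mice and Jam2 at 44.8 and 42.8 CPM. Of 23 within 500 kb of the Prnp start, 11 or 12 were tested. None was called other than Lamr1-ps1, whose call the low-count filter fixed, against 0.047% to 0.723% of all genes. Among the others, Cds2 was at 767 CPM in WT and 760 CPM in APPPS1ΔE9 mice, and Slc23a2 at 189 and 184 CPM. Of 11 genes named Rpsa or Lamr1, 3 or 4 were tested, and none was called other than Lamr1-ps1, with the same limit.

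Over all 38 mice, the genes outside the families whose log2 CPM was most like App included Cst7 (Pearson's r = 0.92) and Clec7a (0.86). Both were also among the genes most like Prnp (0.91 and 0.85) and Lamr1-ps1 (0.92 and 0.87). Cst7 and Clec7a encode a cystatin and a lectin of plaque-associated microglia. These correlations follow the genotype split and are given as a description. Aplp1 was most like Cdipt (0.85), Eef2 (0.85) and Nosip (0.84), Aplp2 most like Ergic3 (0.88), Elof1 (0.87) and Tmem106c (0.86), and Sprn most like Kif1bp (0.77), Cdc42se2 (0.75) and Copg2 (0.75). With group means removed, App was most like Map1a (0.76), Dnm1 (0.75) and Uba1 (0.72), and Prnp most like Gabarapl1 (0.79), Thy1 (0.78) and Asns (0.78).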

How the data were processed

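RNA of the whole hippocampus of 38 mice was sequenced, 1 library per mouse. Per the labels and methods, the authors aligned reads to mm10 with STAR and counted reads per gene with HTSeq (intersection-nonempty mode). The deposited values are raw counts, not normalized, with depths of 15847985 to 31895808 per mouse, and nothing in them marks strand use. Whether counting used strand is not given in the sources used here. Gene symbols and positions came from GENCODE M21 (48349 of 48709 identifiers matched). Groups were taken from titles and genotype, agent and age labels.

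Genes were filtered with filterByExpr (minimum count 10, minimum total 15), scaled by TMM and tested with the quasi-likelihood test of edgeR 4.0.16 (R 4.3.3), with only the groups compared in each fit and Benjamini-Hochberg adjustment over all genes tested at 0.1. Interactions used the 4 groups involved. Ratios were tested by exact permutation, and correlations by 100000 permutations. The fits were tested on simulated data with known changes. Alternatives were the size factors of DESeq2, the test of DESeq2 1.42.0, no filter, a threshold of 0.05, Y-linked expression as a covariate, a replicate block, TMM without the genes with transgene reads, all 4 groups of an age in 1 fit, and leaving out each mouse. Named genes are the 7 members, members of 5 lists that were called or were otherwise the 2 highest in level, and the 3 genes most like each member; a further gene that the rule names is not reported here. The members and lists were chosen with earlier results of these data known. Nothing states how the mice were allotted to libraries. The groups of each genotype comparison shared no sequencing lane, nor did the APPPS1ΔE9 chow groups at 6 months. Lane and group cannot be told apart there, and the other chow comparisons shared a lane only in part. The 75 pairs of mice within groups differed by more than counting noise (chi-square divided by its degrees of freedom, 3.17 to 65.3), so each mouse was counted once. Replicate numbers were not treated as pairing the mice. No protein sequence was used here.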

Additional observations from a re-analysis of the deposited data

Results flagged for a closer look

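A check for outlying mice covered 68 groups of 4 to 7 mice, over the members, the log2 ratios and a further gene not reported here. Of these, 6 held a mouse whose gap to its nearest neighbor exceeded Dixon's 95% critical value, all for members. Chance flags about 1 in 20 groups. Lamr1-ps1 was at 11.3 CPM in mouse 71 of the pre-plaque APPPS1ΔE9 mice on placebo, against 16.7 to 17.1 CPM in the other 3 mice. It was at 10.9 CPM in mouse 27 of those on anle138b, against 16.7 to 17.4 CPM. Prnp was at 2612 CPM in mouse 100 of the post-plaque APPPS1ΔE9 mice on placebo, against 2381 to 2425 CPM in the other 4 mice. App was at 1629 CPM in mouse 39 of the pre-plaque WT mice on anle138b, against 1708 to 1719 CPM, and this mouse also held the 1 WT read of Lamr1-ps1. Sprn was at 268 CPM in mouse 75 of the pre-plaque APPPS1ΔE9 mice on placebo, against 236 to 239 CPM. Aplp1 was at 1035 CPM in mouse 63 of the post-plaque WT mice on anle138b, against 1170 to 1206 CPM.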

How the results depend on the processing

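App, Prnp and Lamr1-ps1 (whose call the low-count filter fixed) were called in each of the 4 genotype comparisons, and 0 members in the other 8, under each alternative and without any 1 mouse. Counts over all genes moved more, for example at 6 months on placebo from 12 to 110 without the filter, 91 by DESeq2, 35 with all groups of the age in 1 fit and 4 with the Y-linked covariate. At 6 months on anle138b, 8 became 42 by DESeq2 and 13 with the replicate block. At 10 months on placebo, 55 became 116 by DESeq2, 14 with the covariate and 25 with the block, and on anle138b, 124 became 188, 272 and 19. In the transgenic chow comparison at 6 months, 9 became 208, 94 and 10, with 120 unfiltered and 3 in the joint fit. Values near 0 changed sign. Aplp1 at 6 months on placebo was 0.000455 with DESeq2 size factors, 0.057 with the Y-linked covariate and 0.067 without mice of high Xist, and at 10 months on placebo -0.094 and -0.085 with the last 2. Aplp2 there was 0.00498 and 0.00901, Sprn at 10 months on anle138b 0.0054 with the covariate, and the Prnp interaction at 6 months 0.0015 unfiltered. With the replicate block, Lamr1-ps1 differed between chows at 6 months by -0.0022 and the age difference of Prnp on placebo was -0.018. Leaving out 1 mouse, the log2 fold change ranged from -0.027 to 0.037 for Aplp1, -0.020 to 0.024 for Aplp2 and -0.0028 to 0.12 for Sprn at 6 months on placebo. It ranged from -0.047 to 0.017 for Aplp2 and -0.050 to 0.081 for Sprn at 6 months on anle138b, -0.043 to 0.059 for Aplp1 at 10 months on placebo and -0.062 to 0.0064 for Sprn at 10 months on anle138b. The ranges were -0.12 to 0.14 for Lamr1-ps1 between chows at 6 months, -0.063 to 0.050 for the Prnp interaction at 6 months, -0.039 to 0.054 for its age difference on placebo, and for Prnp against Sprn between chows at 10 months -0.069 to 0.018 in WT and -0.037 to 0.058 in APPPS1ΔE9 mice. App against its paralogs between chows in APPPS1ΔE9 mice at 10 months ranged from 0.10 to 0.15 and missed an exact permutation p of 0.05 without placebo replicate 1 or 3 (p = 0.0758 each) or anle138b replicate 1, 3, 4 or 6 (p = 0.0584 each). With Aplp2 alone it was 0.098, and with Aplp1 alone the 6-month value was -0.15 (exact permutation p = 0.0286). In WT mice at 6 months it was -0.033 with Aplp2 alone. The relation of App and Prnp in WT mice was 0.45 at 6 and 0.89 at 10 months. The causes of these shifts were not tested.

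The labels do not say that a replicate number marks a shared animal, litter or day. Correlations of the deviations of same-numbered mice ran from -0.55 to 0.57 over the 8 comparisons. They were mostly positive in WT mice between chows at 10 months (0.32, -0.22, 0.51, 0.57 and 0.37), and in no comparison did all pairs exceed 0.1, so the numbers were not treated as pairing the mice. With it, sign-flip tests gave App against its paralogs 1.26, 1.09, 1.11 and 1.27, and Prnp against Sprn 1.24, 1.25, 1.36 and 1.41, with exact p of 0.125 at 6 and 0.0625 at 10 months, the smallest that 4 or 5 pairs allow. App against its paralogs between chows at 10 months was 0.12 (exact p = 0.188).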

Other observations

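The chow difference of App in APPPS1ΔE9 mice had opposite signs at both ages, and a test of this was added after seeing the data. In an edgeR fit over the 4 transgenic groups, the chow effect at 10 minus 6 months was 0.26 on the log2 scale for App (95% interval 0.056 to 0.46), with an adjusted p of 0.636 over the 17821 genes tested. It was 0.17 for Prnp (adjusted p = 0.748) and 0.22 for Lamr1-ps1 (adjusted p = 0.913). The chow groups shared no sequencing lane at 6 months and a lane only in part at 10 months, which limits this contrast.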
